A study of Homo sapiens with 30 samples.

Results

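MYCN is a transcription factor of the MYC family that drives an aggressive form of neuroblastoma (NB), a childhood tumor of the sympathetic nervous system. RNA from an SH-EP line carrying MYCN with both T58A and S62A (the double mutant) was compared with RNA from the SH-EP line carrying WT MYCN, with 3 DMSO libraries of each line among 30 libraries in all. SH-EP is an established NB cell line of mesenchymal type that makes no MYCN of its own. The 6 libraries were chosen by line and treatment alone. All cells were grown in DMEM with 10% FBS and received DMSO for 6 hours. The other libraries were from parental SH-EP and from lines with T58A or S62A alone, and from all 5 lines after 1 μM CYC065, an inhibitor of CDK2 and CDK9, for 6 hours. Each allele was carried by a single stable line in which exogenous MYCN was overexpressed, so the allele and the line cannot be told apart. No source says that the 3 libraries of a line came from separate cultures, so p-values measure the spread between libraries, which may be technical.

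As background, MYC proteins bind DNA with the partner MAX at E-box sequences and are normally short-lived. In cells, Ser62 is phosphorylated first, GSK3 then phosphorylates Thr58, and the ubiquitin ligase subunit FBXW7 recognizes the phosphorylated protein and sends it to the proteasome. Alanine cannot be phosphorylated, so both substitutions remove sites of this degradation signal, which also means that RNA levels do not report on the amount of MYCN protein.

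The reference sequence of codons 50 to 69 of MYCN is shown because it holds both mutated sites. It lies in exon 2 on the plus strand, chr2:16082334-16082393 of GRCh37, and capitals mark codon 58 (ACG, threonine) and codon 62 (TCG, serine), both alanine in the double mutant. The sequence of the transgenes themselves was not used here.
MYCN codons 50 to 69: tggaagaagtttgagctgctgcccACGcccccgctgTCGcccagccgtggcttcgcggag

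Stretches of 300 bases around start sites are shown for genes on which results below turn, from 250 bases before to 50 after the start (RefSeq, GRCh38.p14). TGFB2 is shown with the E-box CACGTG in capitals, chr1:218345086-218345385, plus strand. CGA is shown with the cAMP response element TGACGTCA in capitals, chr6:87095057-87095356, minus strand. BST2 is shown with the core of the interferon-stimulated response element, GAAA and again GAAA with 2 bases between, in capitals, chr19:17405581-17405880, minus strand.
TGFB2: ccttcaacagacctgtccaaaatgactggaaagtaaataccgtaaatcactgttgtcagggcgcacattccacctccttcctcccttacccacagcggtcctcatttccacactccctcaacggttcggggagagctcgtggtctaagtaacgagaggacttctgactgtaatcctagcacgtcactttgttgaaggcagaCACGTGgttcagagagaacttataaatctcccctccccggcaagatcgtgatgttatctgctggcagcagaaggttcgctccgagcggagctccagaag
CGA: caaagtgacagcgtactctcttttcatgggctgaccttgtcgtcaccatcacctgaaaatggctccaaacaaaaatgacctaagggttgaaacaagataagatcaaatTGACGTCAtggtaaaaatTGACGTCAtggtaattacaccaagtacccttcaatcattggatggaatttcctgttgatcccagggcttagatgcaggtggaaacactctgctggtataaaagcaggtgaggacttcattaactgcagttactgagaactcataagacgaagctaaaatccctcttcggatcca
BST2: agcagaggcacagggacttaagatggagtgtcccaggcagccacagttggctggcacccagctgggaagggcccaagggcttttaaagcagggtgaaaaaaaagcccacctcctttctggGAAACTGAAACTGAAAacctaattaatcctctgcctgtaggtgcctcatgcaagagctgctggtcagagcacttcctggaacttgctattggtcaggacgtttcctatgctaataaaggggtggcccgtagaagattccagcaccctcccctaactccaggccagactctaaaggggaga
In TGFB2 the E-box began 49 bases before the start. In CGA the 2 elements began 142 and 124 bases before it, and in BST2 2 overlapping pairs began 130 and 124 bases before it. Both strands were searched, and none of the 3 motifs overlaps another motif in these windows. The E-box was in 10.6% of the 8609 promoters matched to tested genes, in 13.4% of the 852 matched genes higher in the double mutant and in 8.57% of the 1272 matched genes lower in it. TGACGTCA was in 3.46%, 2.7%, and 2.2% of the same promoters, and the GAAA pair in 2.72%, 4.11%, and 1.97%. These matches describe the letters of the window and say nothing of binding.

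Expression was given as FPKM (fragments scaled to transcript length and library size), so values were per length and per library. ERCC spike-ins, synthetic RNAs added by cell number, were used only as an alternative scale. The table lists 26228 genes, and the 11575 that averaged 1 FPKM or more across the 30 libraries were tested. Between 41.0% and 43.3% of genes were listed at 0 in WT libraries and between 42.7% and 45.6% in double mutant libraries. Read counts are not in the table, and relative depth, estimated from the steps between the lowest values, was 0.525 to 1 in WT and 0.476 to 0.629 in the double mutant, where 1 is the deepest DMSO library. An exact 0 in such a table can be a failed estimate, and the part of depth in the results for low genes was not tested. The 6 markers counted as mesenchymal, TWIST1 among them, were all detected (summed level 1975 to 2247 FPKM in WT and 1571 to 1643 in the double mutant), whereas of 8 adrenergic markers 3 reached a mean of 1 FPKM. Of 6 blood and endothelial markers none reached 1 FPKM, and KRT19 and MITF were the only ones to do so among 6 epithelial and 6 Schwann, glial, and melanocytic markers.

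MYCN (chromosome 2, 16080672 to 16087129) did not differ between the lines past the threshold. It was listed at 13.3, 13.7, and 11.7 FPKM in the WT libraries and at 15.7, 9.06, and 15.7 FPKM in the double mutant libraries, in the order of the column numbers of the deposited table, which holds for all values below. The groups overlapped, and the log2 difference was 0.023 ± 0.17 (SE, limma adjusted p = 0.957), changing sign when some single libraries were left out. It was 0.44 on the spike-in scale, not past the threshold. The level was 8.52 ± 1.29 FPKM in T58A and 5.72 ± 0.778 FPKM in S62A (mean ± SD, n = 3), both below the double mutant (limma adjusted p = 0.0108 and 6.29e-06). In parental SH-EP, which carries no transgene, it was listed at 0 in each library. Reads from WT and mutant transgenes are not told apart by a gene total.

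In all, 2739 genes (23.7% of those tested) differed between the lines, 1092 higher (9.43%) and 1647 lower (14.2%) in the double mutant (limma, adjusted p under 0.05). Most differences were small, with a median size of 0.39 in log2, and 701 genes differed by at least 1.5-fold, 239 by at least 2-fold and 52 by at least 4-fold. In 2427 of them (21% of tested genes) the libraries of the lines also did not overlap. Over all tested genes, correlations between libraries were 0.926 to 0.928 within the double mutant and 0.932 to 0.948 within WT. Between the lines they were 0.908 to 0.932, so some pairs across the lines were as alike as the double mutant libraries. A fit of the 2 groups alone called 990 genes, 394 higher and 596 lower, and lowered the count in each list of at least 7 tested genes below other than the Notch and imprinted lists. Spike-in scaling used 1 factor per library, from 1.13 to 1.64 in WT and from 1.58 to 2.01 in the double mutant, so the factors overlapped. On the spike-in scale the median difference of all tested genes moved from -0.021 to 0.39 in log2, and 2688 genes were higher and 118 lower, so the share of higher genes among those called was 39.9% on the deposited scale and 95.8% on the spike-in scale. In each list of at least 7 tested genes, more members were then higher than lower. Directions below are on the deposited scale, relative to the other RNAs of the library, and of the 133 genes named by the rule and called, 51, all lower on the deposited scale, lost their call on the spike-in scale.

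**Figure D1:**
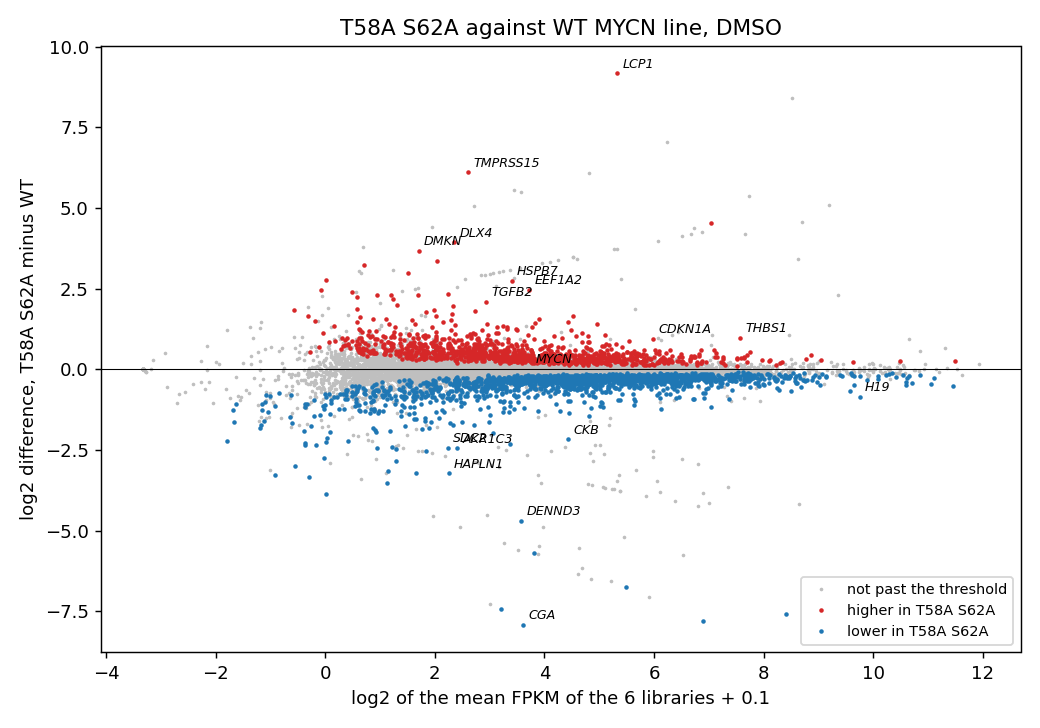
Each point is 1 of 11575 tested genes, with the log2 of its mean FPKM in the 6 libraries (plus 0.1) on the horizontal axis and the log2 difference of T58A S62A minus WT on the vertical axis. Red points (1092) were higher and blue points (1647) lower past the threshold, LCP1 lies at the top at 9.17, MYCN lies at the zero line, and 8 of the called points are unnamed small RNA genes.

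The largest differences were of genes near absence in 1 line. LCP1 (chromosome 13, 46700055 to 46786006), which encodes the actin-bundling protein L-plastin, best known from blood cells, was at 0.0378, 0.06, and 0.0214 FPKM in WT and 80.5, 84.9, and 74.7 FPKM in the double mutant. Every double mutant library thus lay far above every WT library, with a log2 difference of 9.17 ± 0.24 (SE, limma adjusted p = 1.79e-18). T58A alone was intermediate at 13.3, 12.7, and 11.8 FPKM, while S62A was at 1.23, 0.5698, and 0.925 and parental SH-EP at 1.46, 1.68, and 1.91. WT was the lowest of the 5 lines. None of the 6 blood and endothelial markers reached 1 FPKM.

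TMPRSS15 (chromosome 21, 19641433 to 19858197), the intestinal protease enteropeptidase, was at 0, 0.153, and 0.102 FPKM in WT and 11.6, 13.6, and 10.4 in the double mutant. The log2 difference was 6.11 ± 0.35 (SE, limma adjusted p = 3.61e-12). DLX4 (chromosome 17, 48045952 to 48052323), a homeobox transcription factor, was at 0.574, 0.623, and 0.393 FPKM in WT and 9.15, 11.2, and 8.25 in the double mutant, a log2 difference of 3.94 ± 0.34 (SE, limma adjusted p = 6.5e-09). In both genes T58A alone lay between WT and the double mutant, at 1.38, 1.66, and 1.02 FPKM for TMPRSS15 and 3.38, 2.61, and 1.45 FPKM for DLX4. DMKN, a secreted protein of skin, was at 0.453, 0.488, and 0.193 FPKM in WT and 8.01, 4.27, and 5.53 in the double mutant, without overlap (log2 difference 3.68, SE 0.58, limma adjusted p = 4.8e-05). Further genes with large differences and no overlap were the small heat shock protein gene HSPB7 (2.65 ± 0.538 to 18.2 ± 1.26 FPKM, mean ± SD of 3 libraries, as for all such values), the translation elongation factor gene EEF1A2 (4 ± 0.935 to 22.2 ± 1.99), the lipid phosphatase gene PPAPDC1A (1.44 ± 0.0916 to 7.84 ± 1.43), the small GTPase gene RRAD (1.003 ± 0.313 to 5.29 ± 0.655) and CHI3L1, a secreted glycoprotein (1.604 ± 0.123 to 6.14 ± 1.65). For RRAD, T58A was at 3.83 ± 1.37 FPKM, not past the threshold from the double mutant (limma adjusted p = 0.319). CAPN12, a calpain protease gene, was uneven at 7.34, 15.4, and 0.352 FPKM in the double mutant against 0.185, 0.343, and 0.288 in WT, and its call (limma adjusted p = 0.00722) was lost without the second double mutant library.

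TGFB2 (chromosome 1, 218518678 to 218617961), a TGF-beta ligand whose promoter is printed above, set the double mutant apart from all other lines. It was at 2.52, 3.099, and 2.74 FPKM in WT and 12.8, 12.5, and 11.4 in the double mutant, a log2 difference of 2.10 ± 0.11 (SE, limma adjusted p = 1.71e-12). T58A (2.95, 3.21, and 3.04), S62A (3.103, 3.73, and 2.86) and parental SH-EP (3.24, 3.03, and 2.88) all stayed in the range of 2 to 4 FPKM. No other tested gene of the TGF-beta and BMP list used here rose past the threshold, as described below.

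The gene with the largest fall was CGA (chromosome 6, 87795216 to 87804824), which encodes the alpha chain shared by the glycoprotein hormones. It was at 23.1, 25.3, and 23.9 FPKM in WT and listed at 0 in all 3 double mutant libraries (limma adjusted p = 1.38e-09), for which no fold is given. The single mutants went opposite ways from WT, with 0, 1.06, and 1.03 FPKM in T58A and 113, 131, and 117 in S62A, and parental SH-EP was at 54.2, 65.3, and 50.6. CGA is the gene with the 2 cAMP response elements printed above. DENND3 (chromosome 8, 142127377 to 142205907), a regulator of RAB GTPases, fell from 25.4, 22.3, and 21.01 FPKM in WT to 1.17, 0.669, and 0.611 in the double mutant (log2 difference -4.69, SE 0.27, limma adjusted p = 5.4e-12). Here WT was the line that stood apart, since T58A, S62A, and SH-EP were at 0.553 ± 0.0393, 0.601 ± 0.1099, and 0.771 ± 0.117 FPKM (SD, n = 3).

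AKR1C3 and AKR1C1, neighboring aldo-keto reductase genes of steroid metabolism, were both lower. AKR1C3 (chromosome 10, 5077546 to 5149878) was at 10.2, 8.01, and 8.05 FPKM in WT and 2.402, 1.05, and 1.34 in the double mutant (log2 difference -2.45, SE 0.24, limma adjusted p = 5.91e-08), and AKR1C1 was at 13.1 ± 2.09 and 3.26 ± 0.419 FPKM. These paralogs are similar in sequence, so reads may be split between them. SDC2 (chromosome 8, 97506041 to 97624018), the cell-surface proteoglycan syndecan-2, was at 7.39, 7.89, and 8.24 FPKM in WT and 1.16, 1.67, and 1.32 in the double mutant (log2 difference -2.43, SE 0.12, limma adjusted p = 7.64e-13). CKB, brain creatine kinase, was at 40.2, 32.8, and 32.2 FPKM in WT and 7.38, 6.69, and 9.296 in the double mutant (log2 difference -2.16, SE 0.11, limma adjusted p = 4.25e-13). For SDC2 and CKB, T58A was at 8.13 ± 0.639 and 37.5 ± 1.57 FPKM, and S62A at 2.3 ± 0.304 and 8.18 ± 1.35 FPKM (SD, n = 3), so S62A was the nearer to the double mutant. The remaining large falls were of the matrix link protein gene HAPLN1 (8.43 ± 0.857 to 0.8801 ± 0.436 FPKM), the neuropeptide gene NTS (16.97 ± 1.37 to 3.44 ± 1.13), the growth factor gene FGF7 (5.17 ± 0.811 to 1.39 ± 0.389), the tetraspanin gene CD82 (5.74 ± 1.53 to 1.54 ± 0.381) and ECSCR, an endothelial surface protein gene (5.97 ± 1.12 to 1.002 ± 0.428). HAPLN1 was low in T58A as well, at 0.525 ± 0.137 FPKM, not past the threshold from the double mutant (limma adjusted p = 0.146). It was at 0.811 ± 0.197 FPKM in parental SH-EP and 2.93 ± 0.372 in S62A, so WT was the highest line. The readthrough transcript EEF1E1-BLOC1S5, which shares exons with 2 genes, was at 1.86, 0.01, and 0.761 FPKM in the double mutant, and its call (limma adjusted p = 0.0286) was lost without the second double mutant library or any 1 of the WT libraries.

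**Figure D2:**
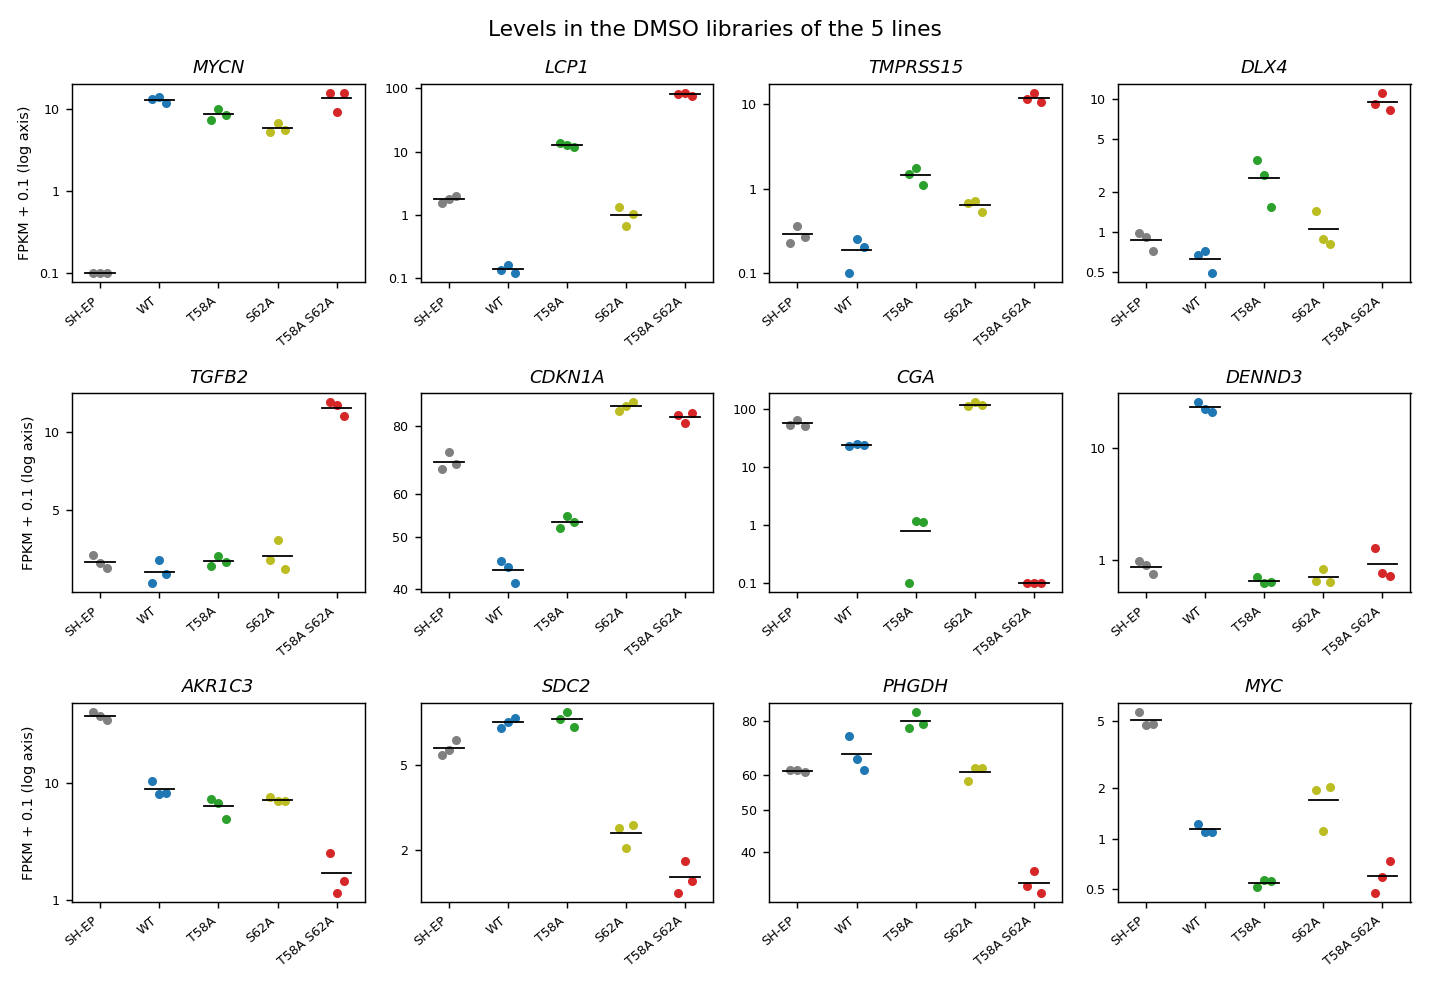
FPKM plus 0.1 of 12 genes in the DMSO libraries of 5 lines on log axes, with 1 point per library and a bar at the mean of 3. LCP1, TMPRSS15, DLX4, and TGFB2 are highest in T58A S62A, CGA is at 0 there, DENND3 is high in WT alone, and the WT and T58A S62A libraries overlap for MYCN.

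Against all 3 other MYCN lines at once, 220 genes were higher (1.9%) and 350 lower (3.02%) in the double mutant, and the 3 comparisons share its libraries. By the size of the smallest of the 3 differences, the leading higher genes were DMKN, TMPRSS15, LCP1, DLX4, BST2, and TGFB2, and the leading lower genes were DIP2C, CGA, AKR1C3, FGF7, CD82, and AKR1C1. BST2, the antiviral membrane protein tetherin, was at 2.83, 1.85, and 1.32 FPKM in WT and 9.19, 6.56, and 7.71 in the double mutant (log2 difference 1.97, SE 0.31, limma adjusted p = 4.68e-05), with T58A at 1.01 ± 0.285 and S62A at 1.98 ± 0.512. DIP2C, a member of the disco-interacting protein family (chromosome 10, 320141 to 735608), was at 4.101, 4.28, and 3.76 FPKM in WT and 0.689, 0.733, and 0.5501 in the double mutant (log2 difference -2.46, SE 0.13, limma adjusted p = 1.58e-12), with T58A, S62A, and SH-EP between 3 and 7 FPKM. On the spike-in scale 131 genes were higher and 12 lower than in all 3 lines.

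Within the MYC network, the proteins that bind MAX or compete for it, 2 of 11 tested genes rose and 3 fell, beside 23.7% past the threshold among all tested genes. MXI1, a repressor that competes with MYC for MAX, was at 3.06, 3.403, and 3.72 FPKM in WT and 6.64, 7.17, and 5.55 in the double mutant (log2 difference 0.90, SE 0.17, limma adjusted p = 0.000321), and MGA, another MAX partner, rose from 5.36 ± 0.662 to 8.36 ± 0.7303 FPKM. Endogenous MYC was low in both lines in DMSO, at 1.13, 0.995, and 0.992 FPKM in WT and 0.377, 0.494, and 0.635 in the double mutant (log2 difference -0.94, SE 0.17, limma adjusted p = 0.000259), a call lost on the spike-in scale. All WT libraries lay above all double mutant libraries for MYC, and parental SH-EP was higher than both at 4.94 ± 0.491 FPKM. MXD1 and MXD4, repressors like MXI1, were the other members that fell (log2 differences -0.60 and -0.48), and the call of MXD1 was lost without the third double mutant or the second WT library.

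Of the 22 genes for phosphorylation and turnover of MYC at Thr58 and Ser62, 1 rose and 4 fell, which is 22.7% against 23.7% of all tested genes. AURKA, the mitotic kinase known to hold MYCN away from FBXW7, was at 112, 111, and 111 FPKM in WT and 80.2, 74.01, and 73.2 in the double mutant (log2 difference -0.56, SE 0.076, limma adjusted p = 6.7e-06). The ubiquitin ligase gene HUWE1 rose from 16.6 ± 0.874 to 20.7 ± 1.86 FPKM. PPP2CA and PPP2R1A, subunits of the phosphatase PP2A, had log2 differences of -0.24 and -0.31, with positive values on the spike-in scale (0.19 and 0.11), and the AURKA call was lost there. FBXW7, GSK3A, and GSK3B did not pass the threshold.

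Classical MYC targets passed the threshold about as often as other genes. Of 36 tested, 2 rose and 6 fell (22.2%, median log2 difference -0.10, beside -0.021 over all tested genes), and on the spike-in scale 6 were higher, none lower, and the median was 0.33. The glycolytic enzyme gene ENO1 rose from 1304 ± 122 to 1550.5 ± 80.3 FPKM (log2 difference 0.25, SE 0.054, limma adjusted p = 0.00108), whereas the nucleolar protein gene NOP58 was at 158, 157, and 159.9 FPKM in WT and 126, 127, and 129.7 in the double mutant (log2 difference -0.31, SE 0.04, limma adjusted p = 2.64e-06). The transferrin receptor gene TFRC and the nucleolar gene GNL3 had log2 differences of -0.30 and -0.26, and NOP58, TFRC, and GNL3 were all positive on the spike-in scale. The GNL3 call was lost without the third WT library. The E-box was in 13 of the 30 matched promoters of this list (43.3%). Of 43 genes of ribosome biogenesis, 3 rose and 12 fell (median -0.048), among them LYAR, a nucleolar protein (94.4 ± 6.23 to 65.2 ± 3.82 FPKM), RRP15 (23.7 ± 1.28 to 16.6 ± 1.27 FPKM) and, rising, UTP20 (17.3 ± 2.24 to 22.3 ± 1.36 FPKM), both components of ribosome assembly. Of 78 cytosolic ribosomal protein genes 1 rose and 13 fell (17.9%, median -0.032), with RPL5 at 1092, 1038, and 1045 FPKM in WT and 788, 877, and 835 in the double mutant. Leaving out single libraries gave 0 to 6 of these ribosomal protein genes higher and 5 to 16 lower. On the spike-in scale both lists turned, with 8 and 9 members higher and none lower, and a fit of the 2 groups alone called none of the ribosomal protein genes.

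CDKN1A, BBC3, SESN2, and FDXR are given as single genes that were named because they passed the threshold, so they do not describe a group. CDKN1A (chromosome 6, 36644237 to 36655114), the CDK inhibitor p21, was at 44.9, 43.8, and 40.96 FPKM in WT and 83.9, 81.2, and 84.5 in the double mutant, a log2 difference of 0.94 ± 0.05 (SE, limma adjusted p = 1.13e-12). T58A lay between, at 53.1 ± 1.36 FPKM, and S62A was at 87.02 ± 1.49, not past the threshold from the double mutant (limma adjusted p = 0.361). The proapoptotic BBC3 (PUMA) was at 4.38, 3.21, and 3.35 FPKM in WT and 6.37, 6.21, and 7.95 in the double mutant (log2 difference 0.89, SE 0.19, limma adjusted p = 0.000907). SESN2, a stress-induced inhibitor of mTORC1, was at 2.77, 3.15, and 2.67 and 4.78, 4.86, and 4.64 FPKM (log2 difference 0.72, SE 0.10, limma adjusted p = 8.99e-06). The mitochondrial reductase gene FDXR rose from 6.68 ± 0.468 to 11.8 ± 3.14 FPKM. Of the 13 tested genes of the BCL2 family list, which does not hold the family members BBC3 and PMAIP1 (0.43, higher past the threshold), 2 rose and 2 fell, each by less than 0.4 in log2, and the calls of BNIP3, BNIP3L, BCL2L2, and MCL1 were each lost without some single libraries.

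Cell cycle genes were divided. Of 49 genes of G1/S and DNA replication, 6 rose and 12 fell (36.7%, median -0.067). CDK6, the cyclin D-dependent kinase, was at 23.3, 25.6, and 25.9 FPKM in WT and 42.3, 42.1, and 39.8 in the double mutant (log2 difference 0.73, SE 0.069, limma adjusted p = 3.13e-08), and the S phase cyclin gene CCNA2 was at 57.5, 64.5, and 65.5 and 91.3, 100.3, and 90.7 FPKM (log2 difference 0.59, SE 0.069, limma adjusted p = 7.78e-07). The replication helicase gene MCM7 rose from 160.1 ± 14.2 to 203 ± 7.89 FPKM, and GINS4, of the same helicase complex, had a log2 difference of -0.37 and lost its call without the first library of either line. Of 38 mitotic genes, 2 rose and 5 fell (18.4%), with MKI67, the proliferation antigen, at 36.9 ± 2.34 and 44.1 ± 1.48 FPKM, and PRC1, a spindle midzone protein, at 87.3 ± 0.592 and 72.2 ± 1.83 FPKM. On the spike-in scale no member of either list was lower and 11 and 8 were higher. Of 25 tested clustered histone genes, 2 fell, HIST2H2BE (5.77, 4.404, and 5.77 to 2.29, 3.63, and 3.28 FPKM) and HIST1H3H (3.54, 2.92, and 2.87 to 1.53, 1.14, and 2.12 FPKM), the latter not without the second double mutant library. Most histone mRNAs lack poly(A) tails, so their levels in poly(A)-selected RNA are uncertain.

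Of the lists with at least 7 tested genes, the extracellular matrix had the largest share past the threshold, with 33 of 42 tested genes past the threshold (78.6%), 8 higher and 25 lower, and a median log2 difference of -0.26 on the deposited scale but 0.16 on the spike-in scale, where 11 were higher and 2 lower. Leaving out single libraries gave 23 or 24 lower, and the fit of the 2 groups alone 5 higher and 12 lower. MGP, an inhibitor of matrix calcification, was at 3.06, 3.72, and 3.66 FPKM in WT and 0.912, 0.639, and 1.05 in the double mutant (log2 difference -1.91, SE 0.20, limma adjusted p = 1.53e-07). The proteoglycan decorin, DCN, was at 3.61, 4.15, and 4.33 FPKM in WT and 1.79, 1.59, and 1.13 in the double mutant (log2 difference -1.38, SE 0.14, limma adjusted p = 1.31e-07). Against this direction, the short-chain collagen gene COL8A1 was at 10.3, 11.9, and 11.8 FPKM in WT and 31.7, 33.9, and 29.1 in the double mutant (log2 difference 1.47, SE 0.091, limma adjusted p = 1.52e-11). THBS1, the matricellular protein thrombospondin-1, was at 119.7, 134, and 128 FPKM in WT and 259.7, 254, and 237 in the double mutant (log2 difference 0.98, SE 0.065, limma adjusted p = 5.43e-11). None of these 4 overlapped between the lines, as was so for 2427 of the 2739 genes called. Among members named after their values were seen, the collagen crosslinking enzymes LOX (-0.95), LOXL1 (-0.36), and LOXL2 (-0.62), the collagen VI chains COL6A1 (-0.46), COL6A2 (-0.58), and COL6A3 (-0.63), and the protease inhibitors TIMP1 (-0.73), TIMP2 (-0.35), and TIMP3 (-0.56) all fell, whereas the basement membrane chains COL4A5 (0.39), COL4A6 (0.54), and LAMB1 (0.31) and the urokinase gene PLAU (0.75) rose.

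In the TGF-beta and BMP pathway list TGFB2 was the 1 member of 30 tested that rose, and 10 fell (median -0.18, and 0.24 on the spike-in scale, where 4 were higher and none lower). The ligand TGFB1 (-0.42) and the receptors TGFBR2 (-0.41) and BMPR2 (-0.27) fell, as did the latent TGF-beta binding proteins LTBP1 (-0.44) and LTBP3 (-0.50), the inhibitory SMAD7 (-0.25), and the ligand BMP5, from 4.42 ± 0.773 to 2.42 ± 0.489 FPKM. The BMP target ID4 fell from 12.7 ± 0.538 to 9.22 ± 1.26 FPKM, though not without the first double mutant library. The fit of the 2 groups alone left 1 higher and 1 lower.

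Actin and YAP target genes were evenly split, with 7 of 23 higher and 7 lower, although 60.9% passed the threshold. The YAP targets CTGF (111, 110.2, and 102 FPKM in WT and 173, 163, and 157 in the double mutant, log2 difference 0.61, SE 0.048, limma adjusted p = 1.18e-09) and AJUBA (20.6 ± 1.64 to 33.3 ± 2.903 FPKM) rose. The smooth muscle genes went both ways, with ACTA2 at 24.6, 22.2, and 20.02 FPKM in WT and 34.9, 34.5, and 34.8 in the double mutant and TAGLN at 25.4, 22.9, and 21.3 and 15.4, 12.1, and 16.5. The TAGLN call was lost on the spike-in scale.

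Markers of both NB states were more often lower than higher on the deposited scale. Of 43 mesenchymal markers tested, 5 rose and 15 fell (median -0.14), and of 17 adrenergic markers 2 rose and 6 fell (median -0.12), while on the spike-in scale 11 and 5 were higher and 1 and 3 lower. SNAI2, a mesenchymal transcription factor, was at 11.9, 11.6, and 12.7 FPKM in WT and 6.85, 4.64, and 6.84 in the double mutant (log2 difference -0.99, SE 0.12, limma adjusted p = 1.61e-06). PRRX1 (-0.43), VIM (-0.40), FN1 (-0.34), and CD44 (-0.35), 4 of the defining mesenchymal markers, were also lower, and TWIST1 (0.41), counted here as mesenchymal, was higher. The study lists TWIST1 beside HAND2 among factors of the adrenergic state. The receptor NOTCH1 was at 5.08, 4.39, and 4.58 FPKM in WT and 9.66, 8.06, and 9.21 in the double mutant (log2 difference 0.92, SE 0.12, limma adjusted p = 2.3e-06), while NOTCH2 moved oppositely at 15.4, 18.1, and 18.2 and 12.03, 11.2, and 10.6 FPKM (log2 difference -0.61, SE 0.064, limma adjusted p = 1.72e-07), a call lost on the spike-in scale. PDGFRA, a mesenchymal growth factor receptor, rose from 2.41 ± 0.0425 to 4.16 ± 0.544 FPKM. Of the adrenergic genes, the neurofilament gene NEFL was at 11.2, 12.3, and 11.4 FPKM in WT and 4.298, 4.36, and 4.18 in the double mutant (log2 difference -1.42, SE 0.075, limma adjusted p = 1.07e-12), and the granule protein gene SCG2 was at 30.1, 31.5, and 32.5 and 12.7, 12.8, and 11.1 FPKM (log2 difference -1.36, SE 0.059, limma adjusted p = 6.32e-14). The growth cone protein gene GAP43, uneven at 0.0904, 1.22, and 0.152 FPKM in the double mutant, fell as well. HAND2 (0.31) rose and GATA3 (-0.62) fell, both adrenergic transcription factors.

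**Figure D3:**
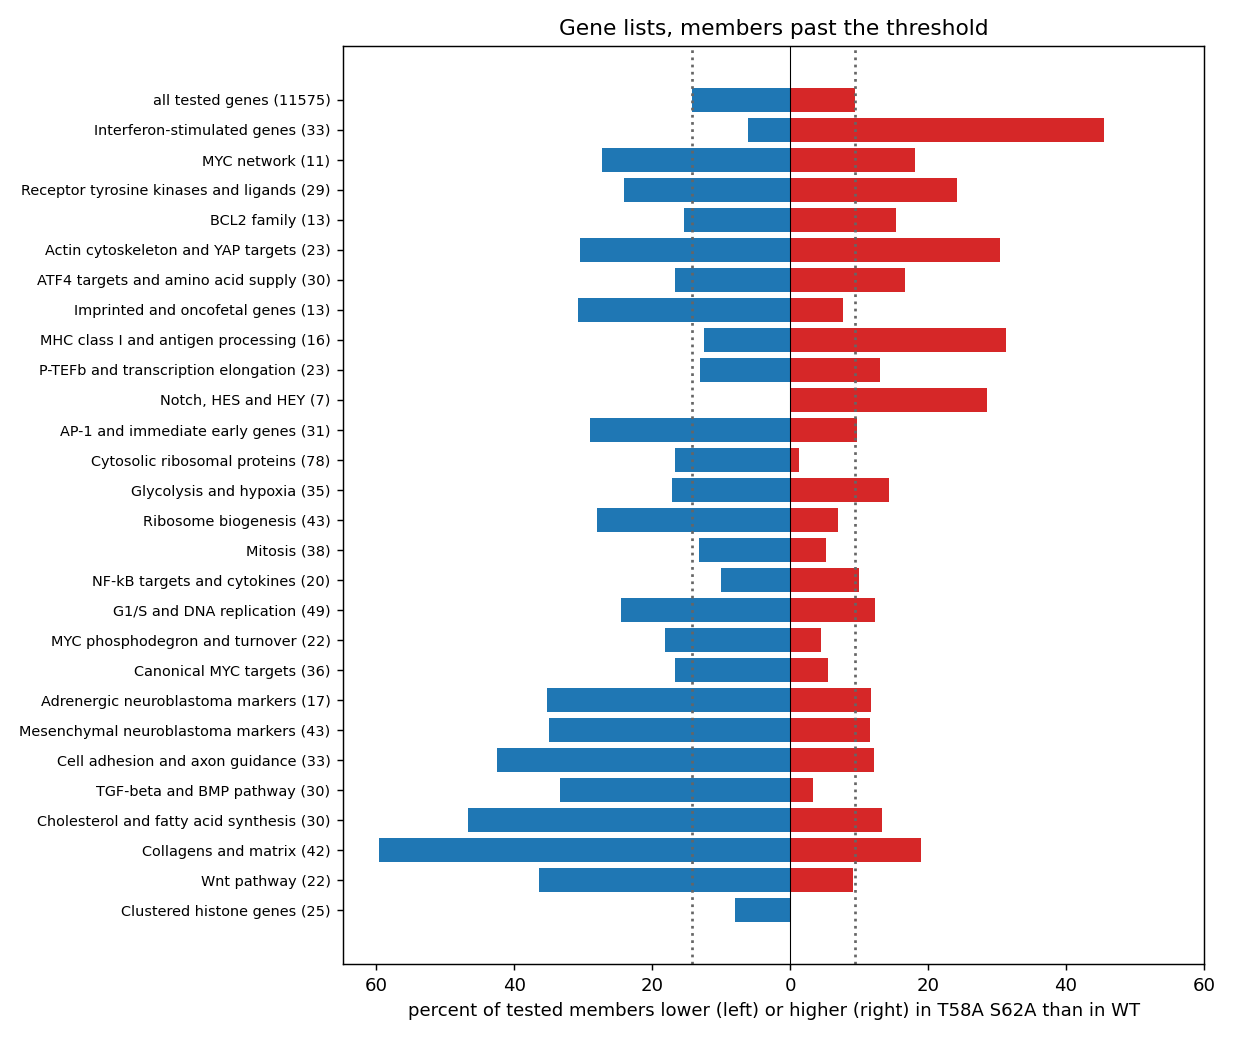
For each gene list shown, with at least 7 tested genes (number in brackets), bars give the percent of tested members lower (blue, left) and higher (red, right) in T58A S62A than in WT, in order of the median log2 difference, with all tested genes at the top. Dotted lines mark the 14.2% lower and 9.43% higher of all tested genes, and of the lists shown, which leave out 1 list not reported here, the matrix list reaches farthest to the left and the interferon list farthest to the right.

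Wnt pathway genes were more often lower than higher on the deposited scale, with 2 of 22 higher and 8 lower, and a median of -0.30 that was 0.12 on the spike-in scale (3 higher and 2 lower there). The secreted Wnt amplifier RSPO3 was at 15.2, 13.4, and 14.05 FPKM in WT and 6.15, 6.41, and 6.502 in the double mutant (log2 difference -1.15, SE 0.11, limma adjusted p = 3.57e-08). Its receptors LGR5 and LGR4 moved oppositely, with LGR5, also a Wnt target, at 4.15, 6.13, and 5.97 FPKM in WT and 9.93, 13.97, and 11.4 in the double mutant (log2 difference 1.11, SE 0.17, limma adjusted p = 3.42e-05), and LGR4 falling from 2.64 ± 0.493 to 1.7 ± 0.205 FPKM, a call that most single omissions removed. The secreted inhibitor FRZB was at 1.32, 1.09, and 1.14 FPKM in WT and 0.159, 0.119, and 0.223 in the double mutant, and the inhibitors DKK2 (-0.56), DKK3 (-0.55), and SFRP1 (-0.39) also fell. In the Notch list 2 of 7 tested genes rose and none fell (28.6%, beside 23.7% of all tested genes, median -0.019). This list does not hold the receptors NOTCH1, which rose, and NOTCH2, which fell, both given above. The ligand JAG2 was at 4.79, 3.97, and 3.64 FPKM in WT and 11.6, 9.8, and 12.02 in the double mutant (log2 difference 1.41, SE 0.14, limma adjusted p = 5.46e-08). HES4, a Notch target, was at 0.895, 1.03, and 0.736 and 3.81, 3.02, and 4.71 FPKM, with a call that was lost without some single libraries.

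Interferon-stimulated genes, which answer viral or cytokine signals, were higher far more often than lower. Of 33 tested, 15 rose and 2 fell (51.5%), with a median log2 difference of 0.33, and single omissions gave 12 to 15 higher and 0 to 2 lower, and the spike-in scale 16 and 0. BST2, described above, led the list, and its promoter holds the interferon motif. TRIM22, an antiviral ubiquitin ligase, was low in both lines, at 0.283, 0.324, and 0.2398 FPKM in WT and 0.993, 1.01, and 1.35 in the double mutant (log2 difference 1.66, SE 0.25, limma adjusted p = 2.27e-05). USP18, which removes ISG15 from proteins, was at 1.998, 1.801, and 2.85 and 4.46, 5.33, and 4.18 FPKM (log2 difference 1.06, SE 0.28, limma adjusted p = 0.00638). Named after their values were seen, the immunoproteasome genes PSMB9 (1.03) and PSMB8 (0.38) and the peptide transporter genes TAP1 (0.85) and TAP2 (0.33) rose, as did IFI35 (0.96) and PARP9 (0.75), whereas IFI44 (-1.10) and IFI44L (-0.65) fell, the call of IFI44 being lost without either of 2 libraries in each line. The GAAA pair was in 19 of the 28 matched promoters of this list and in 7 of the 13 matched genes that rose. Among 16 genes of MHC class I and antigen processing, 5 rose and 2 fell, among them the peptide-trimming ERAP1 (5.86 ± 0.622 to 8.36 ± 1.05 FPKM), HLA-E (16.4 ± 0.736 to 19.7 ± 0.4901 FPKM), PSMB10 (23.3 ± 3.58 to 31.8 ± 0.723 FPKM, not without the third WT library) and the chaperone gene PDIA3 (141 ± 7.01 to 111 ± 12.4 FPKM), which was positive on the spike-in scale. The fit of the 2 groups alone called 10 and 0 of the interferon list and none of the MHC list.

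Among AP-1 and immediate early genes, 3 of 31 rose and 9 fell (median -0.031), with 6 higher and none lower on the spike-in scale. FOS was at 63.5, 61.8, and 52.4 FPKM in WT and 41.5, 35.1, and 41.9 in the double mutant (log2 difference -0.58, SE 0.091, limma adjusted p = 3.94e-05), and SPRY2, a feedback inhibitor of receptor signaling, was at 18.7, 20.4, and 18.9 and 13.2, 10.3, and 11.6 FPKM (log2 difference -0.72, SE 0.10, limma adjusted p = 6.7e-06). PHLDA1 fell from 43.9 ± 2.09 to 31.1 ± 1.01 FPKM, and BTG2, an antiproliferative gene, rose from 4.29 ± 0.327 to 6.78 ± 1.08 FPKM. Of 20 NF-kB targets and cytokines 2 rose and 2 fell (20%), namely BIRC3 (0.86) and TNFAIP2 (0.48, lost without the third WT library), and the cytokine genes CXCL8 (-0.66) and CSF1 (-0.47).

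Of 29 receptor tyrosine kinase and ligand genes, 7 rose and 7 fell. The receptors EPHB4 (3.59, 3.84, and 3.399 FPKM in WT and 6.69, 6.73, and 6.18 in the double mutant, log2 difference 0.84, SE 0.16, limma adjusted p = 0.000493) and DDR2, which binds collagen (12.97 ± 2.54 to 21.7 ± 3.06 FPKM), rose. The ligand HGF was at 7.698, 7.57, and 9.21 FPKM in WT and 4.36, 5.59, and 5.34 in the double mutant (log2 difference -0.67, SE 0.12, limma adjusted p = 0.000122), and FGF7 fell as given above. Adhesion and axon guidance genes were more often lower than higher, 4 of 33 higher and 14 lower (median -0.14, with 6 higher and none lower on the spike-in scale). NRP2, a semaphorin coreceptor, was at 12.9, 13.3, and 13.9 FPKM in WT and 28.7, 24.2, and 26.3 in the double mutant (log2 difference 0.98, SE 0.056, limma adjusted p = 3.5e-12), SEMA3E rose from 1.09 ± 0.0877 to 2.002 ± 0.282 FPKM, and the guidance cue gene SLIT3 fell from 1.59 ± 0.468 to 0.788 ± 0.204 FPKM. The cadherin gene CDH13 had a log2 difference of 1.55 ± 0.44 (SE, limma adjusted p = 0.012), lost without the third WT library.

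Cholesterol and fatty acid synthesis genes were more often lower than higher on the deposited scale, with 4 of 30 genes higher and 14 lower (60.0%, median -0.23), but on the spike-in scale 5 were higher, none lower, and the median was 0.19. IDI1, of the isoprenoid steps, was at 35.6, 39.6, and 41.2 FPKM in WT and 19.8, 23.9, and 20.5 in the double mutant (log2 difference -0.86, SE 0.067, limma adjusted p = 1.21e-09), and squalene synthase, FDFT1, was at 28.9, 26.4, and 24.9 and 17.1, 17.4, and 18.2 FPKM (log2 difference -0.60, SE 0.065, limma adjusted p = 2.55e-07). HMGCS1, of the first steps, fell from 8.65 ± 1.05 to 5.71 ± 0.888 FPKM, and HSD17B7 had a log2 difference of -0.58, lost without the first library of either line. Genes of amino acid supply and ATF4 were even, 5 of 30 higher and 5 lower. PHGDH, the first enzyme of serine synthesis, was at 73.8, 65.2, and 61.5 FPKM in WT and 33.3, 36.1, and 32.1 in the double mutant, lower than in every other line (log2 difference -0.98, SE 0.055, limma adjusted p = 2.86e-12). ASNS, asparagine synthetase, was at 28.2, 26.9, and 24.4 and 38.3, 41.7, and 35.6 FPKM (log2 difference 0.54, SE 0.067, limma adjusted p = 1.92e-06), the glutamine transporter gene SLC1A5 rose from 123 ± 13.7 to 161 ± 5.47 FPKM, and SESN3 fell from 1.56 ± 0.394 to 0.276 ± 0.0181 FPKM. In glycolysis and hypoxia 5 of 35 rose and 6 fell. The hypoxia-induced carbonic anhydrase CA9 was at 1.91, 2.34, and 1.42 FPKM in WT and 6.25, 5.99, and 5.93 in the double mutant (log2 difference 1.66, SE 0.23, limma adjusted p = 1.17e-05), the glucose transporter gene SLC2A1 rose from 29.2 ± 3.01 to 38.8 ± 2.81 FPKM, and the glycolytic regulator PFKFB3 fell from 25.3 ± 0.776 to 15.9 ± 0.917 FPKM.

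Of 13 imprinted and oncofetal genes, 1 rose and 4 fell. The neighbors H19 (chromosome 11, 2016396 to 2025782), a noncoding RNA, and IGF2, a growth factor, fell together, H19 from 1251, 1032, and 1040.1 FPKM in WT to 649.9, 542, and 653 in the double mutant (log2 difference -0.85, SE 0.11, limma adjusted p = 3.02e-06) and IGF2 from 15.1, 13.2, and 12.5 to 9.01, 7.56, and 7.12 FPKM. Parental SH-EP was lower than both lines, at 5.65 ± 1.18 and 1.02 ± 0.206 FPKM. GNAS, a G protein subunit gene (441 ± 41.5 to 278 ± 11.97 FPKM), and SNRPN, a splicing protein gene (47.1 ± 3.06 to 31.7 ± 2.74 FPKM), also fell, and all 4 calls were lost on the spike-in scale. Among 23 genes of P-TEFb and transcription elongation 3 rose and 3 fell, including HEXIM1, the inhibitor of CDK9, from 10.3 ± 0.292 to 14 ± 0.808 FPKM, the kinase gene CDK12 from 14.2 ± 1.19 to 17.8 ± 0.607, its cyclin CCNK from 22.4 ± 1.07 to 18.4 ± 0.902, and NELFCD from 52.3 ± 1.58 to 38.1 ± 3.497. Of markers of other cell types, KRT19 (3.96, 2.21, and 2.36 to 1.396, 1.205, and 1.08 FPKM) fell in the epithelial list (2 tested), none of the blood and endothelial list was tested, and in the Schwann, glial, and melanocytic list (2 tested) MITF rose from 2.705 ± 0.216 to 4.89 ± 0.386 FPKM and S100B was at 0.874, 1.62, and 1.81 FPKM in WT and 0, 0, and 0.982 in the double mutant. Their part in the results was not tested.

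Genes were also placed by chromosome, a view chosen after the data were seen. Of 135 bins of 20 Mb with at least 30 tested genes, 7 had a median log2 difference above 0.15 and 11 below -0.15. Chromosome 7 had the highest median of all chromosomes, at 0.15 over 509 genes, of which 27.1% were higher and 10.8% lower, beside 9.43% and 14.2% over all tested genes. Its bins from 80 to 160 Mb had medians of 0.25, 0.17, 0.27, and 0.16, with 26.6% to 45.0% of genes higher, and the first bin, from 0 to 20 Mb, had a median of -0.23 with 46.6% of genes lower. The lowest bin of all was on chromosome 20, from 60 to 80 Mb, with a median of -0.31 over 39 genes, of which 5.13% were higher and 43.6% lower. The medians of these 2 low bins were 0.13 and 0.099 on the spike-in scale. Among genes described above that lie on chromosome 7, CDK6, MCM7, ASNS, EPHB4, and SEMA3E rose and HGF fell. The median of chromosome 7 was 0.085 for the double mutant against parental SH-EP and -0.014 for WT against parental SH-EP. For the double mutant it was 0.027 against T58A and 0.00066 against S62A. In the chromosome 20 bin the median against parental SH-EP was 0.42 for WT and 0.086 for the double mutant. There the double mutant had a median of 0.058 against T58A and -0.39 against S62A. Chromosome 1 had the lowest median, at -0.083. DNA copy number was not used here.

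**Figure D4:**
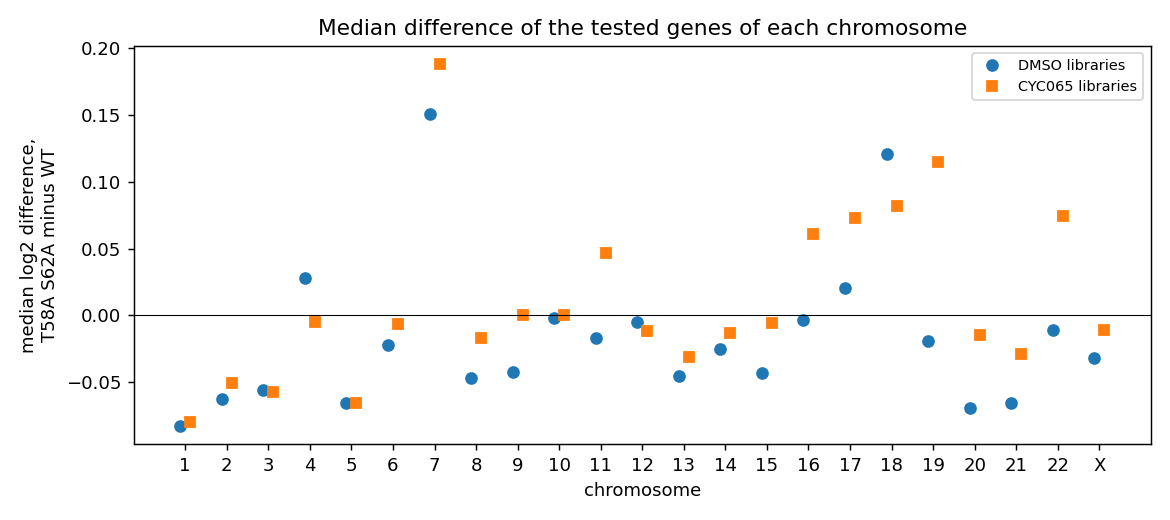
Median log2 difference of T58A S62A minus WT over the tested genes of each chromosome, in DMSO libraries (circles) and in CYC065 libraries (squares). Chromosome 7 is the highest in both, at 0.15 and 0.19.

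The same 2 lines were compared in the 6 CYC065 libraries, which share no library with the DMSO comparison. Here 3496 genes passed the threshold (30.2%). Of the 2739 genes called in DMSO, 1690 were called in the same direction (61.7% of the DMSO calls and 48.3% of the CYC065 calls), 671 higher and 1019 lower, 20 were called in the opposite direction, and 2505 (91.5%) had the same sign, as had 62.8% of the genes not called in DMSO. LCP1, at 0.0536, 0.1801, and 0 FPKM in WT and 129, 131, and 127 in the double mutant, had a log2 difference of 9.63, TGFB2 one of 2.03, DENND3 one of -4.89 and DIP2C one of -2.39, all within 0.5 of their DMSO values. Others of the largest differences moved more, such as RRAD (2.32 in DMSO and 3.12 in CYC065), CD82 (-1.83 and -1.05) and FGF7 (-1.84 and -1.21). For none of these did the change between treatments pass the threshold. Of the matrix genes 4 were higher and 25 lower in CYC065, with 4 and 23 of them so in both. Of interferon-stimulated genes 11 were higher and 6 lower, with 10 and 2 so in both. Of cholesterol and fatty acid genes 2 were higher and 13 lower, with 2 and 11 so in both. Some other lists did not carry over. Cytosolic ribosomal protein genes had 20 higher and 3 lower in CYC065, with 0 and 2 so in both. AP-1 and immediate early genes had 13 higher and 4 lower, with 3 and 3 so in both. Clustered histone genes had 4 higher and 0 lower, and NF-kB targets and cytokines 4 and 1, with 0 so in both. CAPN12 (-0.88, limma adjusted p = 0.492) and EEF1E1-BLOC1S5 (-0.67, limma adjusted p = 0.684) did not pass the threshold there. A difference between treatments in the line difference passed the threshold in 192 genes (1.66%).

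**Figure D5:**
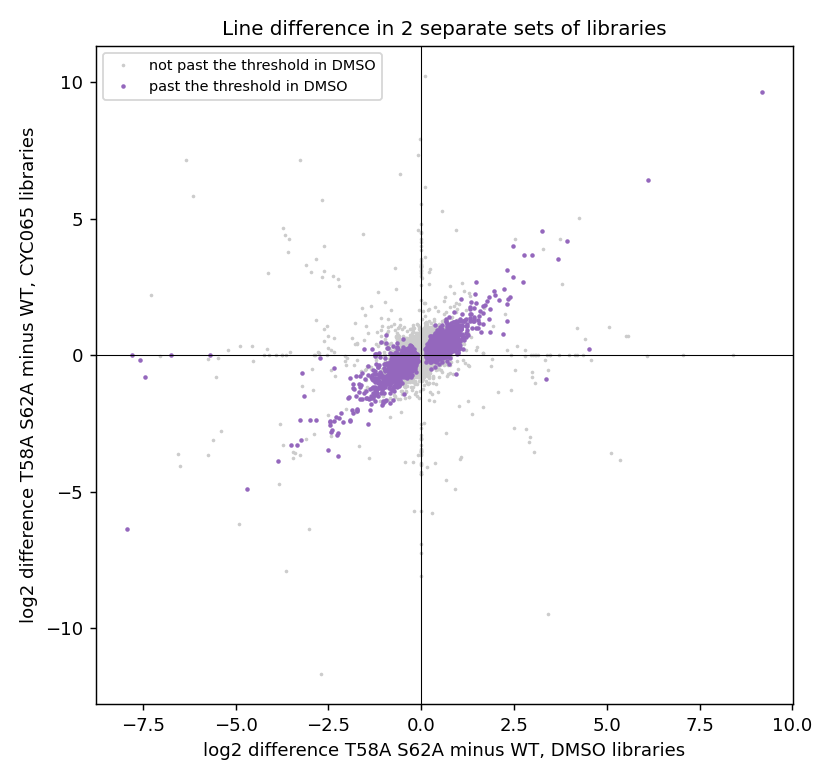
Each point is a tested gene, with its log2 difference of T58A S62A minus WT in DMSO libraries (horizontal) and in CYC065 libraries (vertical), and purple points passed the threshold in DMSO. Of these 2739 genes, 2505 have the same sign on both axes, with LCP1 at the upper right (9.17 and 9.63) and some points far from 0 on the horizontal axis lie near 0 on the vertical axis.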

How the data were processed

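Per the labels and the study's methods, poly(A)-selected, strand-specific RNA-Seq reads from 30 libraries (10 groups of 3) with ERCC spike-ins were aligned to hg19 with HISAT, and the authors deposited 1 table of FPKM computed with Cufflinks. Read counts were not used here, so no count test was run. The deposited FPKM were fitted in R 4.3.3 by limma 3.58.1, as log2(FPKM + 0.1), in 1 fit over all 10 groups (eBayes with trend). The 11575 genes averaging 1 FPKM or more were tested, two-sided, with Benjamini-Hochberg adjustment over all of them and a threshold of 0.05. This scale understates the changes of low genes. The spike-in scale used 55 of 92 spike-ins. The members and lists were chosen with earlier results of these data known. Named genes were MYCN, the 12 highest and 12 lowest called genes without overlap and with at least 5 FPKM, up to 4 called members per list, and the 6 and 6 leading genes against all 3 other MYCN lines, small RNA genes being counted but not named. Some named genes and 1 list are not reported here. Positions are GRCh37 from the lifted GENCODE annotation, and promoters GRCh38.p14 from RefSeq. On simulated data for 11575 genes with independent normal noise and 200 changed 2-fold, 171 were recovered with 12 false calls. Differences called in the real data were more numerous and mostly smaller, so these rates do not carry over to them. Alternatives were other pseudocounts, filters, spike-in scaling, median centring, robust eBayes, fits of fewer groups, a 1.5-fold minimum, and omission of each library.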

Additional observations from a re-analysis of the deposited data

Results flagged for a closer look

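For 11 of the named genes, the difference between the double mutant and the WT line was not the same after CYC065 as in DMSO, by a test of the interaction in the same limma fit. Values are the CYC065 difference minus the DMSO difference in log2. It was 1.38 (limma adjusted p = 0.00442) for MYC, which went from 1.13, 0.995, and 0.992 FPKM in WT and 0.377, 0.494, and 0.635 in the double mutant with DMSO to 7.47, 7.77, and 6.88 and 10.8, 8.51, and 11.1 with CYC065. The histone gene HIST1H3H had an interaction of 1.69 (limma adjusted p = 0.0181). The smooth muscle actin gene ACTA2 had -0.66 (limma adjusted p = 0.00424), so that a line difference of 0.64 in DMSO was -0.021 in CYC065. Further positive values were those of CXCL8 at 0.92 (limma adjusted p = 0.0235), CSF1 at 0.41 (limma adjusted p = 0.0449), and CCNK at 0.39 (limma adjusted p = 0.00726). Further negative values were those of ASNS at -0.44 (limma adjusted p = 0.0175), THBS1 at -0.39 (limma adjusted p = 0.0278), HUWE1 at -0.33 (limma adjusted p = 0.0404), NRP2 at -0.32 (limma adjusted p = 0.0364), and CDKN1A at -0.28 (limma adjusted p = 0.0436). For THBS1, NRP2, and CDKN1A the double mutant was higher than WT under both treatments. Groups of 3 libraries were not searched for single outlying libraries.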

How the results depend on the processing

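On the spike-in scale, 2688 genes were higher and 118 lower in the double mutant than in WT, 131 were higher and 12 lower than in all 3 other MYCN lines, 10296 differed in CYC065, 2701 were shared in the same direction with DMSO, and 7 were opposite. The fit of the 2 groups alone called 990 genes, 394 higher and 596 lower. Requiring 1.5-fold left 701, 319 higher and 382 lower. Leaving out single libraries gave 2140 to 2694 genes in all and 15 to 36 opposite in CYC065, the 36 without the third double mutant library, and a MYCN difference from -0.11 to 0.29, which was 0.44 on the spike-in scale and not past the threshold there. Only genes named by the rule were followed singly through the alternatives, not others given above such as PRRX1, VIM, FN1, and CD44. Of the genes named by the rule, those lower on the deposited scale and positive with spike-ins were BNIP3L (0.026), MCL1 (0.22), NOP58 (0.11), TFRC (0.13), GNL3 (0.16), RPL5 (0.078), RPL7 (0.12), RPS18 (0.15), RPS21 (0.16), GINS4 (0.046), PDIA3 (0.081), DLGAP5 (0.14), PRC1 (0.15), NEK2 (0.15), PPP2R1A (0.11), PPP2CA (0.19), CCNK (0.14), and BRIX1 (0.049), none past the threshold there. The cause was not tested. Of 133 named genes called, 56 kept their call and direction under every alternative in which they were tested. The filters at 5 FPKM and over the 6 libraries kept 94 and 127 of 134 named genes, MYCN included. The 1.5-fold minimum was not applied to single genes. The fit of the 2 groups alone lost 51, the spike-in scale lost 51 (the 18 above and 33 that stayed negative, among them TAGLN, SPRY2, FOS, PHLDA1, SLIT3, IDI1, FDFT1, HMGCS1, HSD17B7, HIST1H3H, HIST2H2BE, PFKFB3, H19, IGF2, GNAS, SNRPN, IFI44, NOTCH2, MYC, MXD1, AURKA, CXCL8, CSF1, KRT19, NELFCD, HGF, LYAR, RRP15, BMP5, LTBP3, ID4, and LGR4), and a pseudocount of 0.01 lost 6 (among them CHI3L1, ECSCR, HES4, BMP5, and CDH13). Pseudocounts of 1 and 0.01, robust eBayes, median centring, filters at 5 FPKM or over the 6 libraries, and no filter left every count within 1.5 times. No paired analysis was possible because the column suffixes do not match the replicate numbers of the labels. Read depth is unknown, so no counting error could be given, and low genes are the least certain.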
